A study of Mus musculus with 15 samples.

Results

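The 10 genes described here encode enzymes that take sphingomyelin and ceramide apart or act in steps next to this breakdown. They were picked by symbol from the 17752 genes listed in the ileum of 15 mice. Asah2 and Enpp7 encode enzymes of the brush border that work on lipids in the gut lumen, Asah1 and Smpd1 encode their lysosomal counterparts, Acer1 and Acer2 encode ceramidases of the endoplasmic reticulum and Golgi, and Sphk1, Sphk2, Sgpl1 and Gba2 encode enzymes that act on the products or on a related lipid. All 10 genes were listed in every mouse and all 10 passed the filter on low counts.

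The mice were female animals labelled C57BL/6 (C57BL/6JOlaHsd in the study's methods) and 8 weeks of age, each given an oral gavage every second day (an interval of 2 days) over 10 days and fed a purified diet. The water group received water alone. The low PAC and high PAC groups received 200 mg/kg of proanthocyanidins (PAC), polyphenol polymers from grape, of low or high molecular weight respectively; the study's methods call the second fraction one of medium mean degree of polymerization. There were 5 mice per group, with 1 ileum library from each, so the PAC fractions were compared at 1 dose and 1 time only.

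Sphingomyelin is a lipid of cell membranes and of food. A sphingomyelinase removes its phosphocholine head and leaves ceramide, a ceramidase splits ceramide into sphingosine and a fatty acid, a sphingosine kinase makes sphingosine-1-phosphate, and a lyase breaks that product irreversibly. In the small intestine the first steps take place largely outside the cell, on the microvilli of absorptive enterocytes, while the lysosomal enzymes recycle the cell's own membranes.

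The 15 libraries held 15963086 to 17903886 expected counts each, and 16138 to 16392 genes were listed per mouse. The tissue label was checked against markers of the distal ileum, and Fabp6, the ileal bile acid binding protein, was at 4196 to 10620 FPKM (fragments per kilobase of transcript, scaled to library size) in all 15 mice. Replicate 3 of the high PAC group stood apart in enterocyte markers: the summed FPKM of 12 such genes was 3655 there and 6804 to 9392 in the other 14 mice. Replicates 4 and 5 of the water group stood apart in markers of the distal ileum: the summed FPKM of 6 such genes was 5531 and 5251 there and 7625 to 11836 in the other 13 mice. Fabp6 made up 77.5% to 89.7% of this sum; the other 5 genes summed to 1225 and 1055 in those mice, to 1216 in high PAC replicate 3 and to 1437 to 1846 in the other 12. Replicates 1 and 3 of the water group stood apart in smooth muscle (summed FPKM of 302 and 261, against 552 to 1068 in the other 13) and in mesothelium (0.98 and 0.69, against 4.43 to 23.4). Values without these mice are given for the enzymes the results turn on, and the steps of leaving out either pair of water mice were chosen after the marker values were seen. In a bulk tissue, fewer cells of a type and less RNA per cell cannot be told apart.

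In the water group the brush border enzymes led the list. Enpp7 averaged 341 FPKM ± 142 (SD, n = 5), above 98.8% of listed genes, and Asah2 averaged 98.4 FPKM ± 50, with ranges that overlapped (lowest Enpp7 of 150, highest Asah2 of 155). Sgpl1 at 79.9 FPKM ± 9.50 and Asah1 at 59.2 FPKM ± 6.58 came next, and the ranges of Asah2, Sgpl1 and Asah1 overlapped from each to the next. Sphk2, at 21.0 FPKM ± 2.33, overlapped neither Asah1 above it nor Smpd1 below it. Smpd1 (6.74 FPKM ± 0.39), Acer1 (6.43 FPKM ± 0.64) and Acer2 (6.38 FPKM ± 0.30) could not be ordered beyond their spread, and Gba2 (2.70 FPKM ± 0.40) and Sphk1 (1.94 FPKM ± 0.75) were the lowest of the 10, again with overlapping ranges.

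The genes also differed in how steady they were. Between the lowest and the highest of the 15 mice, Enpp7 spanned 15.6-fold and Asah2 14.3-fold, whereas Asah1 spanned 1.33-fold and Smpd1 1.52-fold. Asah2 had a coefficient of variation of 50.8% within the water group alone, against 11.1% for Asah1.

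**Figure D1:**
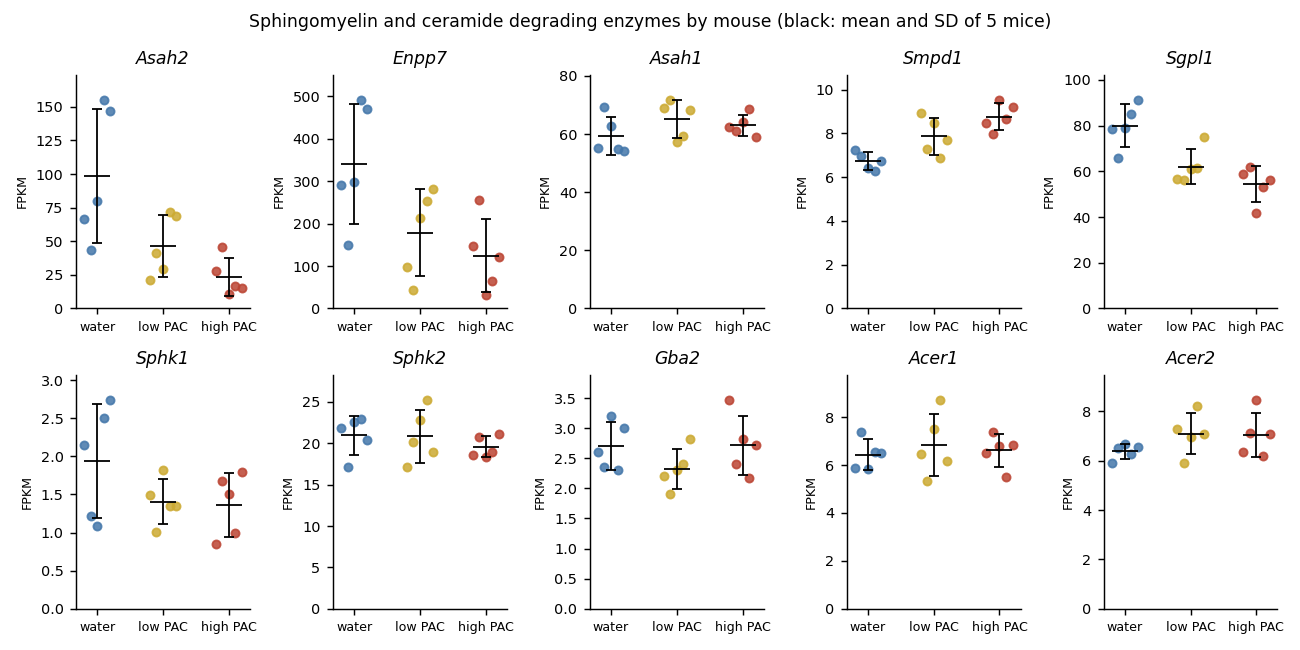
FPKM of each of the 10 enzymes (y axes, linear, from 0) in the water, low PAC and high PAC groups (x axes); each point is 1 mouse and the black bars give the mean and SD of 5 mice. Asah2 and Enpp7 scatter widely and have lower means in both PAC groups, while the 5 high PAC points of Sgpl1 lie below all water points and those of Smpd1 above all water points.

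Asah2 and Enpp7 are shown with Sgpl1 by the DNA around their start sites, because they had the 3 highest means of the 10 in the water group and differ in base composition at the start. Each line gives 300 bases of the RefSeq annotation on GRCm38.p6, from 250 bases before the start to 50 after it, 5′ to 3′ on the gene's strand, and capitals mark matches to the words searched. The Asah2 start used by RefSeq lies 5071 bases inside the GENCODE span of the gene, at or close to the start of 2 of its 10 GENCODE transcripts. Another 5 start at or close to the outer end, and the DNA there is not shown.
Asah2, chr19:32103091-32103390, minus strand: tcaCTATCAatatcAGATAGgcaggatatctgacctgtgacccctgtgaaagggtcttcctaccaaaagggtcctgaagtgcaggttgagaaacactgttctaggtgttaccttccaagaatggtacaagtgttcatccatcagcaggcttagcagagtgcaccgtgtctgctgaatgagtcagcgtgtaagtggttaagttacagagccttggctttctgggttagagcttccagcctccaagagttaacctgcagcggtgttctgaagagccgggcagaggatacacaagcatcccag
Enpp7, chr11:118987931-118988230, plus strand: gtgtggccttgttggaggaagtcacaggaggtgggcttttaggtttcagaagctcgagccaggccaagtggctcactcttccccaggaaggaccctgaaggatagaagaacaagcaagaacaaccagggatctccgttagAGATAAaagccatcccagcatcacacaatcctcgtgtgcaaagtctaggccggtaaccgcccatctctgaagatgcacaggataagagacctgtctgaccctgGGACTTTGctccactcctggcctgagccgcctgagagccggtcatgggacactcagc
Sgpl1, chr10:61147635-61147934, minus strand: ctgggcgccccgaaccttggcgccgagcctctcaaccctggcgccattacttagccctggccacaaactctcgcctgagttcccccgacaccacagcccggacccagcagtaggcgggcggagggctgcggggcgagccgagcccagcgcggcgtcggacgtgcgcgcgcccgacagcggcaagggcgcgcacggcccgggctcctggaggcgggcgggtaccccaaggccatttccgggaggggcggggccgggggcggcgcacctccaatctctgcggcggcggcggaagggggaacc

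For GATA factors the word AGATAA was searched on both strands, as were its relatives TGATAA (first letter changed), then AGATAG (last letter changed) and finally TGATAG (both letters changed). The word for CDX was TTTATNG, that for HNF4 was CAAAGTCC, that for part of the HNF1 motif was GTTAAT and that for the TATA box was TATAAA. The Asah2 window held CTATCA, the reverse complement of TGATAG, at -247 and AGATAG at -236 from the start, and the Enpp7 window held AGATAA at -110 and GGACTTTG, the reverse complement of CAAAGTCC, at -7. At least 1 of the 4 GATA words occurred in 29.8% of all 32851 windows of this length, and CAAAGTCC in 1.42%. The Sgpl1 window held none of the words. It did differ in composition, with 38 CpG pairs and 75.3% G or C, against 4 CpG and 49.3% in Asah2 and 7 CpG and 55.0% in Enpp7; the median of all windows was 7 CpG and 52.7%. Windows were found for 9 of the 10 genes, all but Asah1, and the Smpd1 window had 16 CpG, 63.0% G or C and no match. Among the other windows those of Sphk1 held TATAAA at -31 in 1 window. AGATAA, reading the other strand, was at -124 and -131 in a pair of overlapping windows, the same site counted from different starts.

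Asah2 (gene 54447, chromosome 19, 31982597 to 32108211, minus strand, GRCm38) encodes neutral ceramidase, which frees sphingosine from dietary ceramide at the brush border. In the water group its FPKM was 66.2, 43.6, 79.8, 155 and 147 in replicates 1 to 5. In the low PAC group it was 21.2, 41.3, 29.7, 71.6 and 68.9, and in the high PAC group 27.8, 45.9, 10.9, 16.8 and 15.3. Of the high PAC mice, 4 lay below every water mouse and replicate 2 lay just above the lowest of them, while of the low PAC mice 3 lay below every water mouse and 2 lay within the water range. Water replicates 4 and 5, the mice with the lowest summed distal ileum markers, had the highest Asah2.

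The mean Asah2 level was 4.22-fold lower with high PAC than with water, and by edgeR the log2 fold change was -2.16 (SE 0.45, 95% interval -3.11 to -1.21, unadjusted p = 0.000204). Across all 14386 genes tested, the adjusted p was 0.133, so Asah2 did not pass the threshold of 0.05. The 2-sided exact permutation test of log2 FPKM over these 10 mice gave p = 0.0159, where the smallest p it allows is 0.00794. Leaving out high PAC replicate 2, the mouse with the highest Asah2 of its group, brought the log2 fold change to -2.58 and the edgeR adjusted p to 0.0461, and DESeq2 on all mice gave an adjusted p of 0.00824. Without high PAC replicate 3 it was -1.95, with an edgeR adjusted p of 0.215. Without water replicates 4 and 5 the log2 fold change was -1.56 (SE 0.45, edgeR unadjusted p = 0.00401, adjusted p = 0.210) and the exact permutation p was 0.0536, where the smallest possible with 3 water mice is 0.0179. Asah2 and Enpp7 are among the genes the study singled out in these same mice, so these tests are not independent evidence of their direction.

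With low PAC the mean of Asah2 was 2.12-fold lower than with water (log2 fold change -1.13, SE 0.44, edgeR unadjusted p = 0.0198, adjusted p = 0.976), and the exact permutation test gave p = 0.0635. With water replicates 4 and 5 left out this was -0.53 (SE 0.46, edgeR unadjusted p = 0.267). The difference between the PAC groups themselves was -1.03 on the log2 scale, lower with high PAC, with a 95% interval of -1.96 to -0.10 and an edgeR adjusted p of 0.896. With 1 mouse left out it ran from -1.45 to -0.83. Its edgeR unadjusted p of 0.0316 did not stay under 0.05 with the replicate number as a block. Nor did it without any 1 of low PAC replicates 4 and 5 and high PAC replicates 3, 4 and 5.

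Enpp7 (gene 238011, chromosome 11, 118988188 to 118993221, plus strand) encodes alkaline sphingomyelinase, the bile salt dependent ectoenzyme that starts the digestion of dietary sphingomyelin. Its FPKM was 291, 150, 299, 492 and 470 in the 5 water mice. It was 98.4, 43.4, 213, 253 and 282 with low PAC, and 147, 255, 31.6, 65.7 and 121 with high PAC. High PAC replicate 2 lay within the water range and the other 4 high PAC mice lay below it, replicate 1 by a small margin. Water replicates 4 and 5 had the highest Enpp7 too.

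The mean of Enpp7 was 2.75-fold lower with high PAC than with water (edgeR log2 fold change -1.54, SE 0.53, 95% interval -2.67 to -0.41). The unadjusted p was 0.0105 and the adjusted p 0.247, and the exact permutation test gave p = 0.0159. Leaving out water replicates 4 and 5 gave a log2 fold change of -1.11 (SE 0.60, edgeR unadjusted p = 0.0836; exact permutation p = 0.0893), and without high PAC replicate 3 it was -1.27 (edgeR adjusted p = 0.412). With low PAC the mean was 1.91-fold lower than with water, with a log2 fold change of -0.99 (SE 0.52, edgeR unadjusted p = 0.0767, adjusted p = 0.976), or -0.56 without water replicates 4 and 5. Between high PAC and low PAC the log2 difference was -0.55, with an interval of -1.66 to 0.56 that holds values on both sides of 0.

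The lysosomal pair was much steadier. Asah1 (gene 11886, chromosome 8, 41340197 to 41374773, minus strand), the acid ceramidase, was at 55.2, 69.2, 62.8, 54.9 and 54.1 FPKM with water. It was at 69.1, 71.8, 57.3, 59.2 and 68.1 FPKM with low PAC and at 62.6, 61.0, 64.2, 68.5 and 58.8 FPKM with high PAC. The groups overlapped throughout, and the log2 fold change of high PAC against water was -0.01 with a 95% interval of -0.20 to 0.18, its sign depending on the scaling.

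Smpd1 (gene 20597, chromosome 7, 105554360 to 105558389, plus strand), the acid sphingomyelinase, went the other way from Enpp7. It was at 7.24, 6.99, 6.40, 6.30 and 6.76 FPKM with water. It was at 8.96, 7.29, 8.49, 6.90 and 7.68 FPKM with low PAC and at 8.48, 7.98, 9.55, 8.65 and 9.19 FPKM with high PAC. All 5 high PAC mice lay above all 5 water mice, as they also did on the TMM-scaled log2 CPM.

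The mean of Smpd1 was 1.30-fold higher with high PAC in FPKM, and the log2 fold change by edgeR was 0.28 (SE 0.08, 95% interval 0.11 to 0.46, unadjusted p = 0.00331, adjusted p = 0.195; exact permutation p = 0.00794). FPKM and the TMM-scaled counts differ here, since the median gene was 0.09 higher in high PAC on the log2 FPKM scale and 0.00 by edgeR. Without water replicates 4 and 5 the log2 fold change with high PAC was 0.23 (SE 0.10, edgeR unadjusted p = 0.0343). Low PAC against water gave a log2 fold change of 0.17 (SE 0.08, edgeR unadjusted p = 0.0584), with 4 of 5 low PAC mice above all water mice.

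Setting each brush border enzyme against its lysosomal counterpart within the same mouse removes the library scaling. The study singled out Asah2 and Enpp7 in these same mice, so the tests of both ratios are not independent evidence of their direction. Asah1 differed little between groups, so the test of Asah2 to Asah1 largely repeats that of Asah2. The FPKM ratio of Asah2 to Asah1 was 1.2, 0.63, 1.27, 2.83 and 2.72 in the water mice, and thus over 1 in 4 of 5. With low PAC it was 0.307, 0.574, 0.518, 1.21 and 1.01, over 1 in 2 of 5, and with high PAC it was 0.444, 0.752, 0.169, 0.245 and 0.259, over 1 in 0 of 5. Acid ceramidase transcript therefore exceeded neutral ceramidase transcript per length in every high PAC mouse.

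The mean log2 ratio of Asah2 to Asah1 was lower with high PAC than with water, by a difference of -2.2 (exact permutation p = 0.0159, 0.0476 after Benjamini-Hochberg adjustment over the 6 ratio tests). It was -1.60 (exact permutation p = 0.0536) without water replicates 4 and 5, and without high PAC replicate 3 it was -1.96 (exact permutation p = 0.0238). Low PAC against water gave -1.21 (exact permutation p = 0.0476, adjusted 0.0952), and p rose to between 0.0794 and 0.127 without any 1 of water replicates 1, 3, 4 and 5 or low PAC replicates 1, 2 and 3; without water replicates 4 and 5 together it was -0.61 (exact permutation p = 0.25). High PAC against low PAC gave -0.99 (exact permutation p = 0.103), with -1.29 and p = 0.0397 without high PAC replicate 2 but -0.75 and p = 0.198 without high PAC replicate 3.

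The ratio of Enpp7 to Smpd1 had a median of 46.7 with water, 25.1 with low PAC and 13.2 with high PAC. It ranged from 21.4 to 78.2 in the water mice and from 3.30 to 31.9 in the high PAC mice, of which 4 of 5 lay below all water mice. The log2 difference of high PAC against water was -2.04 (exact permutation p = 0.0159, adjusted 0.0476). It was -1.60 both without water replicates 4 and 5 (exact permutation p = 0.0893) and without high PAC replicate 3 (exact permutation p = 0.0317). For low PAC against water it was -1.32 (exact permutation p = 0.0635), and from -1.60 to -0.91 with 1 mouse left out (exact permutation p from 0.0317, without water replicate 2, to 0.135). With water replicates 4 and 5 both left out it was -0.88 (exact permutation p = 0.268). For high PAC against low PAC it was -0.72 (exact permutation p = 0.373), or -0.27 (exact permutation p = 0.698) without high PAC replicate 3.

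**Figure D2:**
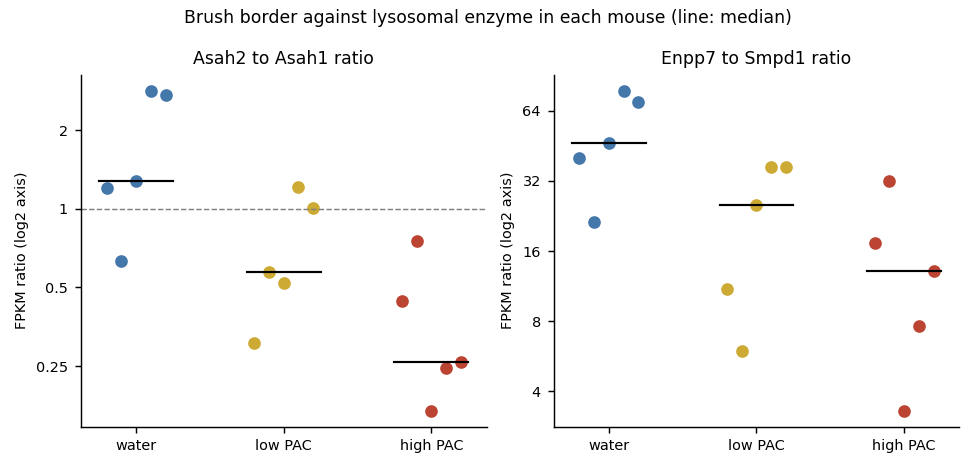
FPKM ratio of Asah2 to Asah1 (left) and of Enpp7 to Smpd1 (right) on log2 y axes, by group (x axes); each point is 1 mouse, black lines are medians and the dashed line marks a ratio of 1. The Asah2 to Asah1 ratio is above 1 in 4 of 5 water mice and in 0 of 5 high PAC mice, and the median Enpp7 to Smpd1 ratio is 46.7, 25.1 and 13.2 in water, low PAC and high PAC.

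Sgpl1 (gene 20397, chromosome 10, 61098642 to 61147703, minus strand) encodes sphingosine-1-phosphate lyase of the endoplasmic reticulum, the exit from the pathway. Its FPKM was 78.5, 65.8, 79.1, 85 and 91.4 with water. It was 56.7, 56.0, 60.9, 61.7 and 75.2 with low PAC, and 59.0, 61.7, 41.6, 53.0 and 56.4 with high PAC. The high PAC and water groups did not overlap, in FPKM or in TMM-scaled log2 CPM, and 4 of 5 low PAC mice lay below all water mice.

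The mean of Sgpl1 was 1.47-fold lower with high PAC than with water (edgeR log2 fold change -0.65, SE 0.11, 95% interval -0.90 to -0.41, unadjusted p = 3.53e-05). This was the sixth smallest p of all genes tested, and with an adjusted p of 0.0756 it missed the threshold; the exact permutation p was 0.00794, the smallest possible. The edgeR adjusted p was 0.0445 without water replicate 2 and 0.045 without high PAC replicate 2, each the lowest or highest mouse of its group. With any other mouse left out it lay above 0.05 and reached 0.217, and without high PAC replicate 3 the log2 fold change was -0.53 with an adjusted p of 0.126. Without water replicates 4 and 5 it was -0.58 (SE 0.13, edgeR unadjusted p = 0.000722, adjusted p = 0.210), with groups that still did not overlap, and DESeq2 on all mice gave an adjusted p of 0.000301. With low PAC the log2 fold change was -0.42 (SE 0.11, edgeR unadjusted p = 0.00206, adjusted p = 0.976; exact permutation p = 0.0159), or -0.34 (exact permutation p = 0.0714) without water replicates 4 and 5. Between the PAC groups it was -0.23 with an interval of -0.47 to 0.01.

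The kinases upstream of this lyase were measured with unequal depth. Sphk1 (gene 20698, chromosome 11, 116530925 to 116536674, plus strand), which phosphorylates sphingosine in the cytosol, had 23 to 82 expected counts per mouse. It was at 2.15, 1.22, 1.08, 2.50 and 2.74 FPKM with water, where 3 mice were above all PAC mice and 2 were within the PAC range. It was at 1.01 to 1.82 FPKM with low PAC and 0.85 to 1.80 FPKM with high PAC. The edgeR log2 fold changes against water were -0.65 with high PAC (SE 0.27, unadjusted p = 0.0273, adjusted p = 0.291) and -0.61 with low PAC (SE 0.27, unadjusted p = 0.0373), whereas the exact permutation tests on FPKM gave p = 0.206 and p = 0.238. Water replicates 4 and 5 were 2 of the 3 highest mice, and without them the log2 fold change with high PAC was -0.29 (SE 0.29).

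Sphk2 (gene 56632, chromosome 7, 45709467 to 45718002, minus strand), the other kinase, found mainly in the nucleus and at internal membranes, lay between 17.1 and 25.2 FPKM in all 15 mice, with overlapping groups. Its log2 fold change with high PAC was -0.20 (95% interval -0.43 to 0.04). Its exons overlap those of Dbp and Rpl18 on the opposite strand, and those of Gba2 overlap Creb3 and Rgp1, so that without a stated use of strand in the counting their reads may be shared and both levels are uncertain.

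Gba2 (gene 230101, chromosome 4, 43566928 to 43578873, minus strand), the non-lysosomal glucosylceramidase that makes ceramide from glucosylceramide, was at 2.30 to 3.21 FPKM with water, 1.90 to 2.82 with low PAC and 2.18 to 3.47 with high PAC. The log2 fold change was -0.27 with low PAC (95% interval -0.56 to 0.02) and -0.09 with high PAC (-0.38 to 0.19).

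The groups overlapped for both alkaline ceramidases. Acer1 (gene 171168, chromosome 17, 56953490 to 56982126, minus strand), an enzyme of the endoplasmic reticulum best known from skin, was at 5.34 to 8.72 FPKM in the 15 mice, with a log2 fold change for high PAC of -0.06 (95% interval -0.30 to 0.19). Acer2 (gene 230379, chromosome 4, 86874396 to 86934822, plus strand), the Golgi ceramidase, was at 5.89 to 8.46 FPKM. For Acer2 the effective length in the files varied from 1913 to 2356 bases between mice, shortest in high PAC replicate 3, the mouse with its highest FPKM; by counts the log2 fold change with high PAC was -0.04 (95% interval -0.24 to 0.15).

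**Figure D3:**
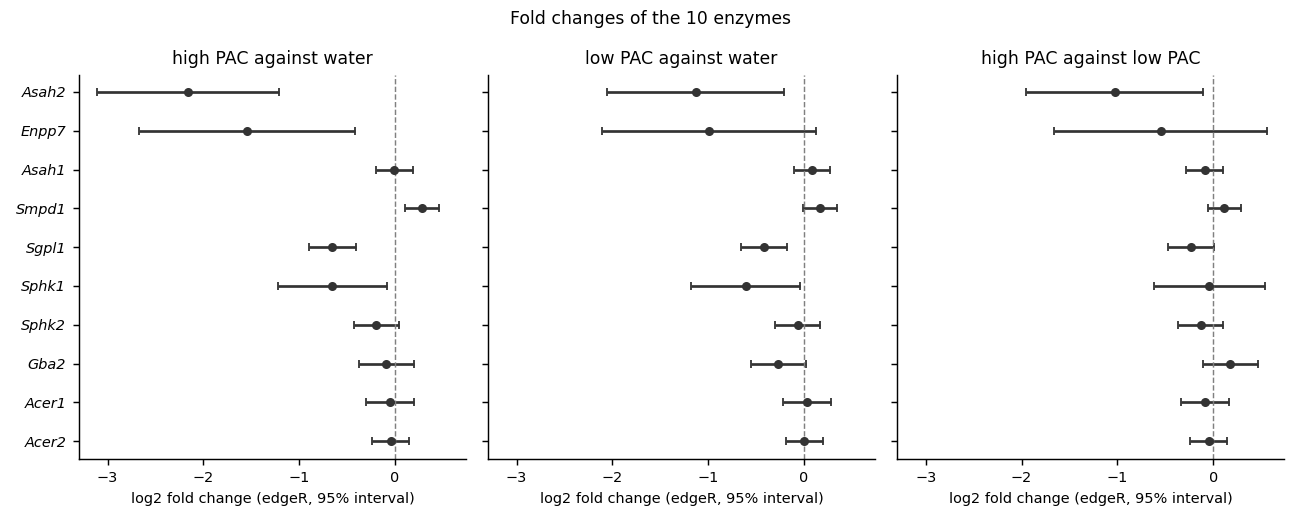
Log2 fold changes by edgeR with 95% intervals (x axes) for the 10 enzymes (y axis) in high PAC against water, low PAC against water and high PAC against low PAC. In high PAC against water the intervals of Asah2, Enpp7, Sgpl1 and Sphk1 lie below 0 and that of Smpd1 lies above 0.

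Counted together, 0 of the 10 enzymes passed the adjusted threshold in high PAC against water, where 0.0139% of all genes tested did. At an unadjusted p under 0.05 there were 5 (4 lower and 1 higher), where 14.8% of all genes tested were (10.4% lower and 4.37% higher). The split of all genes depended on the scaling: 1500 lower and 628 higher with TMM became 816 lower and 1505 higher with upper-quartile scaling, under which the same 4 enzymes stayed lower and Smpd1 stayed higher. The groups did not overlap in FPKM for 2 of the 10, Sgpl1 and Smpd1, where 4.64% of all genes did not (0.646% lower and 3.99% higher). On the TMM-scaled log2 CPM these were again the 2 without overlap, where 2.2% of all genes were lower and 0.813% higher. The median log2 fold change of the 10 was -0.14 and that of all genes 0.00.

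In low PAC against water 0 of 10 passed, as did 0% of all genes, and 3 had an unadjusted p under 0.05 (Asah2, Sgpl1 and Sphk1, all lower) where 3.61% of all genes did (2.21% lower and 1.40% higher). Here too the split of all genes depended on the scaling, with 318 lower and 202 higher by TMM and 210 lower and 312 higher by upper-quartile scaling. Under the latter the enzymes were Asah2 and Sgpl1 (lower) and Smpd1 (higher), without Sphk1. The FPKM of the groups did not overlap for 0 of the 10, and for 0.605% of all genes (0.111% lower and 0.494% higher). In high PAC against low PAC 0 of 10 passed, against 0% of all genes. Of the 10, 1, Asah2, had an unadjusted p under 0.05, lower with high PAC, where 3.89% of all genes did (2.05% lower and 1.84% higher). That call was lost with the replicate number as a block. It was also lost without any 1 of low PAC replicates 4 and 5 and high PAC replicates 3, 4 and 5. No overlap in FPKM was seen for 0 of the 10 and for 0.737% of all genes (0.0904% lower and 0.646% higher). By DESeq2, 2 of the 10 passed the adjusted threshold in high PAC against water, Asah2 and Sgpl1, where 0.530% of the 17727 genes it tested did, and 0 in either other comparison, where 0.0113% (low PAC against water) and 0% (high PAC against low PAC) of genes did. Without water replicates 4 and 5, 3 of the 10 had an unadjusted edgeR p under 0.05 in high PAC against water, Asah2 and Sgpl1 (lower) and Smpd1 (higher), where 16.9% of all genes did (10.7% lower and 6.19% higher). In low PAC against water there was 1, Sgpl1 (lower), where 6.94% of all genes did (3.16% lower and 3.78% higher). Both PAC groups were compared with the same 5 water mice.

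The lower levels of Asah2, Enpp7 and Sgpl1 came with lower levels of general enterocyte transcripts. The summed FPKM of the 12 enterocyte markers was 7798 to 9392 with water, 6804 to 8335 with low PAC and 3655 to 7626 with high PAC. Of the 12 markers, 12 had a log2 fold change below 0 with high PAC (median -0.43). At an unadjusted edgeR p under 0.05 there were 10, where 10.4% of all genes tested were lower, and 0 passed the adjusted threshold. With low PAC 12 were below 0 (median -0.24). Of these, 2 had an unadjusted edgeR p under 0.05, where 2.21% of all genes were lower. Markers of smooth muscle had a median log2 fold change of 0.44 with high PAC, with summed FPKM of 261 to 885 with water and 673 to 1068 with high PAC. Apart from replicates 1 and 3, the water mice were at 831 to 885, within the high PAC range. The summed FPKM of the 5 mesothelium markers was 0.69 to 17.5 with water, or 8.49 to 17.5 without those replicates, and 4.43 to 23.4 with high PAC. That of the 8 markers of Peyer's patch B cells ranged from 7.05 to 155 with water, from 7.64 to 77.5 with low PAC and from 5.71 to 232 with high PAC, and with low PAC all 8 had a log2 fold change below 0 (median -1.26), 0 of them at an unadjusted edgeR p under 0.05. Of 5 markers of crypt stem cells, 5 had a log2 fold change above 0 with high PAC (median 0.21, 1 at an unadjusted edgeR p under 0.05), and their summed FPKM was 433 in high PAC replicate 3 and 228 to 322 in the other 14 mice. The part of these other cell types in the enzyme levels was not tested.

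With water replicates 1 and 3 left out, the edgeR log2 fold changes with high PAC were -2.37 for Asah2 (exact permutation p = 0.0357), -1.64 for Enpp7 (exact permutation p = 0.0893), -0.64 for Sgpl1 and 0.32 for Smpd1 (exact permutation p = 0.0179 for both, the smallest possible). With low PAC that of Sgpl1 was -0.41 (exact permutation p = 0.0536). The Asah2 to Asah1 ratio difference was -2.38 with high PAC (exact permutation p = 0.0357) and -1.39 with low PAC (exact permutation p = 0.107), and the Enpp7 to Smpd1 difference with high PAC was -2.11 (exact permutation p = 0.0714).

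Taken per summed enterocyte marker FPKM in the same mouse, the Asah2 difference of high PAC against water was -1.67 on the log2 scale (exact permutation p = 0.0159), which is 79.6% of the difference without that step. For Enpp7 it was -1.24 (exact permutation p = 0.0635), 74.2% of the difference. For Sgpl1 it was -0.13 (exact permutation p = 0.405), 23.5% of the difference, and -0.25 (exact permutation p = 0.0556) when high PAC replicate 3 was left out. Leaving out that mouse gave -1.65 for Asah2 (exact permutation p = 0.0238) and -1.03 for Enpp7 (exact permutation p = 0.0873). In low PAC against water the values were -0.89 for Asah2 (exact permutation p = 0.135) and -0.92 for Enpp7 (exact permutation p = 0.167). Anpep was the largest of the 12 markers, averaging 3431 FPKM with water and 2534 with high PAC, beside mean sums of 8734 and 6705. Scaling by the enterocyte sum was chosen after the values were seen.

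**Figure D4:**
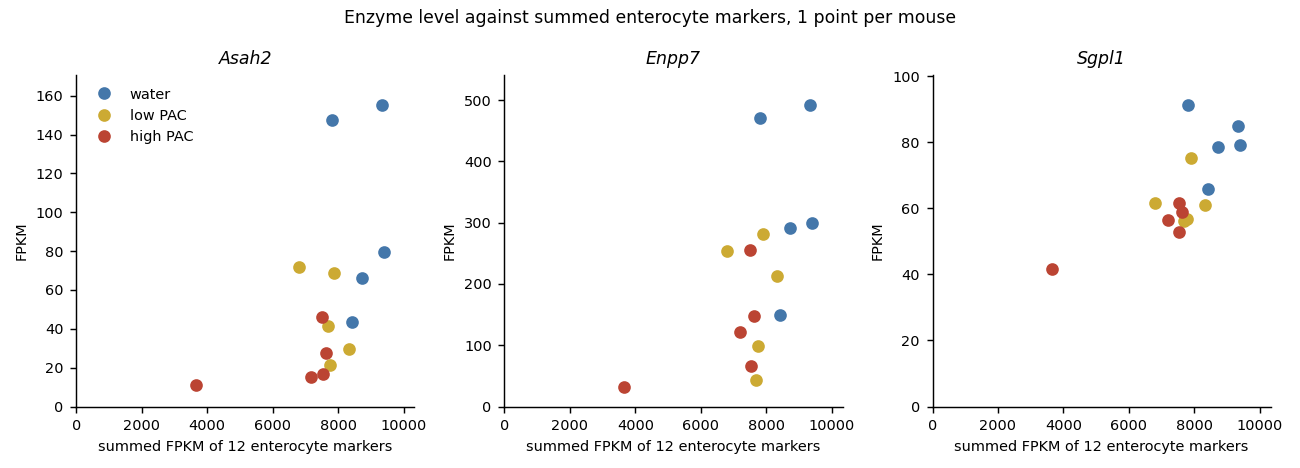
FPKM of Asah2, Enpp7 and Sgpl1 (y axes) against the summed FPKM of 12 enterocyte markers (x axes), with 1 point per mouse coloured by group. High PAC replicate 3, with the lowest marker sum of 3655, also has the lowest level of each enzyme, while among the other mice Asah2 varies several-fold at similar marker sums.

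Asah2 and Enpp7 are known to be most active in the jejunum, so markers of the proximal small intestine were measured beside them. Of 8 such genes, 7 were tested, and Onecut2 was near 0, at 0.01 to 0.06 FPKM in all mice. Their summed FPKM was 558 to 1146 with water, 306 to 833 with low PAC and 531 to 855 with high PAC, and 6 of 7 had a log2 fold change below 0 with high PAC (median -0.63). Gata4, a transcription factor of the proximal intestine, averaged 7.09 FPKM with water, 2.76 with low PAC and 1.33 with high PAC, and it was at 12.5 and 12.7 in water replicates 4 and 5 and at 0.39 to 6.23 in the other 13 mice; the study also singled out Gata4 and Apoa4 of this list. Fabp6 averaged 5679 FPKM with water, 7011 with low PAC and 7789 with high PAC, and the 6 distal ileum markers summed to 5251 to 8568 with water, 7625 to 9248 with low PAC and 7799 to 11836 with high PAC. As a list these 6 genes had no common direction with high PAC, with 2 log2 fold changes above 0 and 4 below (median -0.03) and 0 at an unadjusted edgeR p under 0.05. With low PAC 5 were above 0 and 1 below (median 0.10), again with 0 at that threshold. Replicate 4 of the water group was among the 2 lowest of the 15 mice in 5 of the 6 genes and replicate 5 in 4 of 6. They were the 2 mice highest in both Asah2 and Enpp7, and without them the differences of these enzymes from water were smaller, as given above.

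Within groups the levels of the 3 enzymes were correlated from mouse to mouse. After subtraction of the group means over the 15 mice, Pearson's r was 0.74 between Asah2 and Enpp7 (Spearman's rho 0.76, permutation p = 0.0045 and p = 0.00354), 0.81 between Asah2 and Sgpl1 (rho 0.76, permutation p = 0.00085 and p = 0.00278) and 0.87 between Enpp7 and Sgpl1 (rho 0.90, permutation p = 2e-05 and p = 1e-04). These r were 0.87, 0.79 and 0.82 once the 2 mice most distant in the second gene had been left out. The largest of the 3 adjusted permutation p over the 9 relations computed was 0.0135 for r and 0.0106 for rho.

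Fabp1, Apoa4 and Ces2a made up 91.5% to 97.4% of the summed proximal markers, so Gata4 hardly entered it, and Fabp1 had a log2 fold change of 0.46 with high PAC against -1.17 for Apoa4. Against this sum r was 0.10 for Asah2 (rho -0.02, permutation p = 0.735 and p = 0.958), 0.55 for Enpp7 (rho 0.39, permutation p = 0.0555 and p = 0.189) and 0.49 for Sgpl1 (rho 0.47, permutation p = 0.065 and p = 0.101). Against the summed enterocyte markers r was 0.30 for Asah2 (rho 0.16, permutation p = 0.364 and p = 0.545), 0.49 for Enpp7 (rho 0.27, permutation p = 0.14 and p = 0.33) and 0.59 for Sgpl1 (rho 0.35, permutation p = 0.101 and p = 0.186). None of these 6 relations had an adjusted p under 0.05, and with the 2 most distant mice left out their r lay between -0.08 and 0.32. The 9 relations were chosen after the values were seen. Gata4 alone, whose relation to the enzymes was not tested, was at 4.58, 1.69, 4.04, 12.5 and 12.7 FPKM in water replicates 1 to 5. It was at 0.48, 0.91, 1.97, 6.23 and 4.19 FPKM with low PAC and at 0.58, 4.23, 0.75, 0.72 and 0.39 FPKM with high PAC. Within groups, replicates 4 and 5 were highest in Gata4, Asah2, Enpp7 and Sgpl1 with water and with low PAC. With high PAC it was replicate 2.

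The genes whose mouse-to-mouse pattern was most like that of each brush border enzyme were listed by the same centred Pearson's r, over 15 mice and 12419 genes, as a description. For Asah2 these were Arl14 (0.91), Kcnj13 (0.89), Pld2 (0.89), Epb41l3 (0.88), Ugt2a3 (0.87) and Car13 (0.87), while Sgpl1 stood at rank 13 and Enpp7 at rank 46 (r 0.74). For Enpp7 they were Cyp4v3 (0.98), Slc5a4b (0.98), Ano6 (0.97), Slc6a4 (0.97), 1810055G02Rik (0.96) and Slc7a8 (0.96), while Sgpl1 stood at rank 61 and Asah2 at rank 219. Smpd1 had an r of -0.80 with Asah2, near the opposite end of the list at rank 12410.

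Beyond the 10 enzymes, 58 other genes of sphingolipid metabolism were examined, of which 56 were listed and 53 tested. None of the 53 passed the adjusted threshold in any comparison by edgeR. At an unadjusted p under 0.05 there were 11 in high PAC against water, all lower, where 10.4% of all genes tested were lower, and 7 in low PAC against water, all lower, where 2.21% of all genes were. Their median log2 fold change was -0.14 with high PAC and -0.11 with low PAC, beside 0.00 and -0.01 for all genes tested. By list, the unadjusted lower counts with high PAC were 2 of 7 sphingomyelinases and related enzymes (Smpd3, and the relative Smpdl3b) and 4 of 13 genes for ceramidases and sphingosine-1-phosphate. They were 1 of 11 glycosphingolipid hydrolases and 4 of 22 genes of sphingolipid synthesis, all beside the same 10.4%.

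Smpdl3b, a membrane-anchored relative of acid sphingomyelinase, had the smallest p of the 53. It was at 15.6, 12.5, 18.4, 20.2 and 14.2 FPKM with water. It was at 6.61, 12, 10.6, 11.2 and 10.9 FPKM with low PAC and at 8.20, 11.5, 7.39, 8.41 and 6.13 FPKM with high PAC. Every mouse of both PAC groups lay below every water mouse. The log2 fold change was -1.05 with high PAC (SE 0.19, edgeR unadjusted p = 5.78e-05, adjusted p = 0.0875) and -0.71 with low PAC (SE 0.19, edgeR unadjusted p = 0.00201, adjusted p = 0.976), and the exact permutation p was 0.00794 in both.

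Samd8, the ceramide phosphoethanolamine synthase, had a mean of 10.1 FPKM with water, 8.58 with low PAC and 7.73 with high PAC, and its high PAC mice (6.02 to 8.94 FPKM) lay below all water mice (9.02 to 11.8 FPKM). Mfsd2b, an exporter of sphingosine-1-phosphate, had means of 1.43, 1.25 and 0.99 FPKM in the same order, and its high PAC and water groups did not overlap. In the other direction, Smpd4, a neutral sphingomyelinase, and Ormdl2, an inhibitor of sphingolipid synthesis, had all 5 high PAC mice above all water mice in FPKM (means of 7.56 against 6.75 and 25.4 against 22.1), with edgeR log2 fold changes of 0.07 and 0.10 and unadjusted p of 0.332 and 0.213; both were chosen after their values were seen. The groups thus did not overlap for 5 of the 53, beside 4.64% of all genes. Cerk, which phosphorylates ceramide, was at 12.7 FPKM with water, 10.4 with low PAC and 10.3 with high PAC, and Ugcg, which makes glucosylceramide, was at 71.5, 62.0 and 58.6 FPKM. The log2 fold changes with high PAC were -0.48 for Samd8, -0.61 for Mfsd2b, -0.39 for Cerk and -0.38 for Ugcg, with edgeR adjusted p from 0.167 to 0.218. Cers6, a ceramide synthase, Plpp3, a lipid phosphate phosphatase, and Smpd3, a neutral sphingomyelinase, had -0.30, -0.36 and -0.17. With low PAC the other genes of smallest p were Spns2 (-0.41), an exporter of sphingosine-1-phosphate, Plpp1 (-0.33), Sptssa (-0.26) and Acer3 (-0.16), with unadjusted p from 0.0327 to 0.0887 by edgeR.

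Lactase (Lct), a brush border enzyme that also splits glucosylceramide, is named because its fold change was the largest among the 53, chosen after its values were seen. Its mean was 56.3 FPKM with water, 27.7 with low PAC and 17.3 with high PAC, with a log2 fold change for high PAC of -1.77 and a 95% interval of -3.61 to 0.06 (edgeR adjusted p = 0.352).

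**Figure D5:**
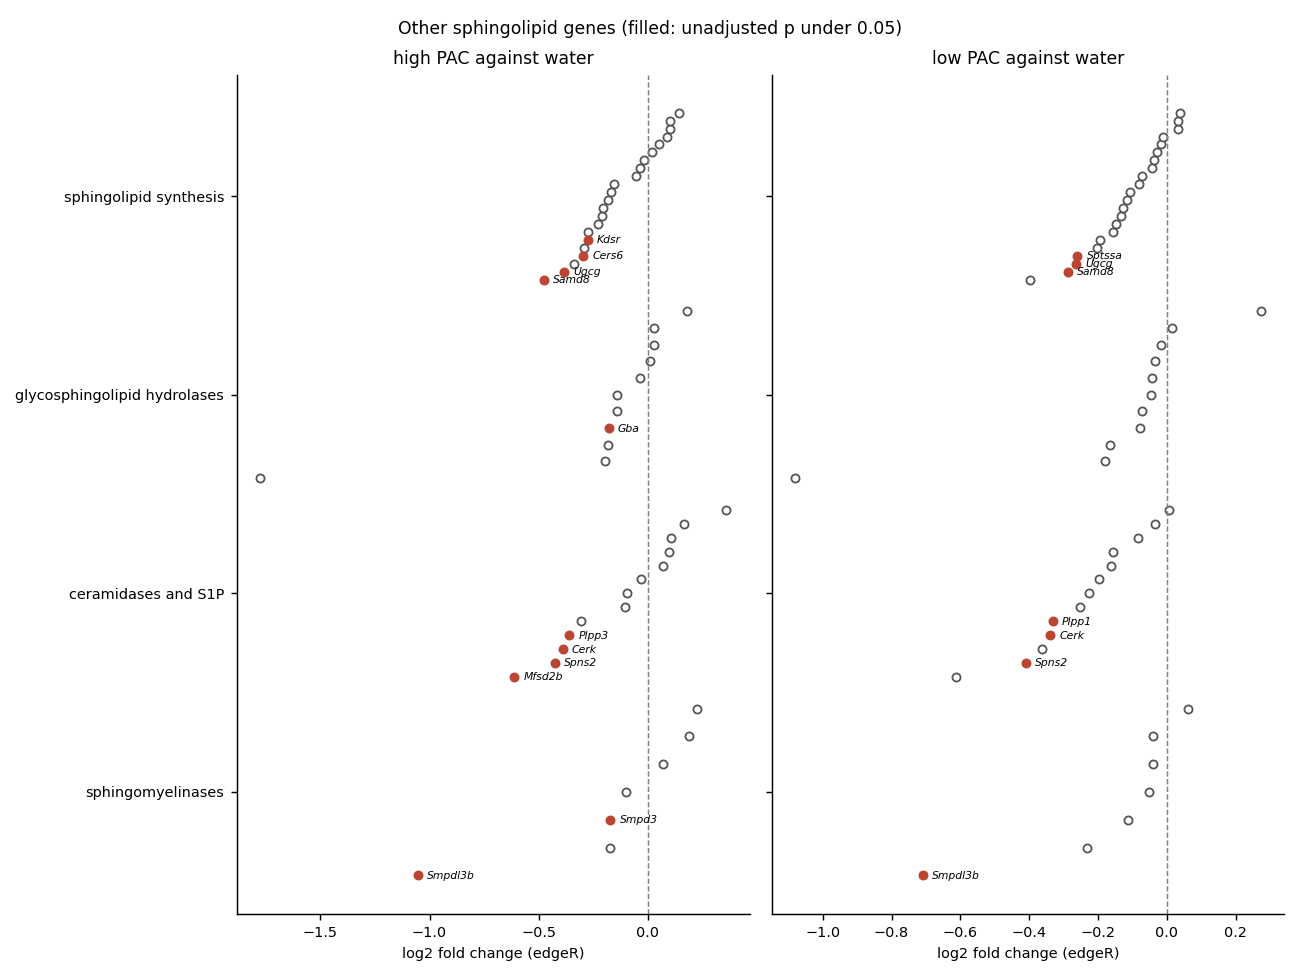
Log2 fold changes by edgeR (x axes) of 53 other sphingolipid genes in 4 lists (y axis), for high PAC against water (left) and low PAC against water (right); filled points have an unadjusted p under 0.05. All 11 filled points on the left and all 7 on the right lie below 0, with Smpdl3b the lowest of them at -1.05 and -0.71.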

How the data were processed

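RNA from the ileum of 15 mice was sequenced on a BGISEQ-500. Per the study's methods, reads were cleaned with SOAPnuke and aligned to mm10 with Bowtie2, and NOISeq was used for calls; the submitters' processing notes list HISAT and DESeq2, and the counting tool is not given in the sources used here. The deposited files hold, per gene, an expected count (not always whole), an FPKM value and an effective length, all made by the authors. The 10 genes and all lists were chosen with earlier results of these data known.

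Groups followed the labels, with 5 mice each. The labels name separate samples, and p-values measure the spread between them. Expected counts were rounded and fitted in edgeR 4.0.16 (R 4.3.3; TMM scaling, filterByExpr, quasi-likelihood F test) with all 15 mice, leaving 14386 genes; Benjamini-Hochberg adjustment ran over all of them, at a threshold of 0.05. Single genes and ratios were also tested by 2-sided exact permutation of log2(FPKM + 0.1), a scale that understates changes of low genes. Relations over mice used 100000 permutations within groups. Other sphingolipid genes were named where they were among the 8 smallest p of a PAC group against water. Alternatives used limma 3.58.1, DESeq2 1.42.0, other scalings and filters, a replicate block, and each mouse or either of 2 pairs of water mice left out. Scripts were tested on simulated data. Gene positions are from GENCODE vM21 (GRCm38).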

Additional observations from a re-analysis of the deposited data

How the results depend on the processing

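The direction of Asah2, Enpp7, Sgpl1 and Smpd1 against water was the same in every alternative run with the fold change. In high PAC against water, genes past the adjusted threshold numbered 2 by edgeR, 94 by DESeq2 (over 17727 genes), 4 with only the compared groups in the fit and 9 by limma on log2 FPKM with either pseudocount, and 2 to 11 with each mouse left out; of the 10 enzymes, 0 to 2 passed with a mouse left out (2 without high PAC replicate 2, 1 without water replicate 2) and 2 by DESeq2. In low PAC against water, 0 genes passed by edgeR (520 at an unadjusted p under 0.05), 2 by DESeq2, and 0 to 1 with a mouse left out. Asah2 in high PAC against water was -2.14 by DESeq2 and -2.58 to -1.93 with a mouse left out. The share of higher among unadjusted calls in that comparison was 29.5% with TMM and 81.1% by limma on FPKM.

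With a mouse left out, the Asah2 to Asah1 ratio difference ran from -1.52 to -0.94 in low PAC against water and from -1.29 to -0.75 between the PAC groups, and the Enpp7 to Smpd1 difference in low PAC against water from -1.60 to -0.91. Same-numbered mice were not linked by any source, and correlations of their deviations ran from -0.31 to 0.45, with 1, 2 and 0 of the 5 numbers correlating best with their own in high PAC against water, low PAC against water and high PAC against low PAC. With the replicate number as a block, 2 and 0 genes passed in high and low PAC against water and no enzyme did; the ratio differences of -2.20 (Asah2 to Asah1, high PAC), -2.04 (Enpp7 to Smpd1, high PAC) and -1.21 (Asah2 to Asah1, low PAC) had sign-flip p of 0.125, 0.125 and 0.0625, the last the smallest that test can give. Leaving out water replicates 4 and 5 together, 0 genes passed in high PAC against water by edgeR (2460 at an unadjusted p under 0.05), and the ratio differences were -1.60 (Asah2 to Asah1, high PAC), -0.61 (Asah2 to Asah1, low PAC) and -1.60 (Enpp7 to Smpd1, high PAC), with exact permutation p of 0.0536, 0.25 and 0.0893; in low PAC against water Asah1 was -0.0118 and Acer2 -0.0128 by edgeR and Sphk2 0.0172 in log2 FPKM, and in high PAC against water Gba2 was -0.0102 in log2 FPKM. Leaving out water replicates 1 and 3 together, 0 genes passed in that comparison by edgeR (1127 at an unadjusted p under 0.05), the Asah2 to Asah1 difference with low PAC was -1.39 (exact permutation p = 0.107) and the Enpp7 to Smpd1 difference with high PAC -2.11 (exact permutation p = 0.0714); with high PAC Asah1 was 0.0165 and Gba2 0.0171 by edgeR and Acer1 -0.0486 in log2 FPKM, and with low PAC Sphk2 was 0.0230 and Acer1 -0.0263 by edgeR and 0.0447 and -0.0139 in log2 FPKM.

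Small differences changed sign with the scaling. In high PAC against water, Asah1 was 0.0561 with upper-quartile, 0.0154 with RLE scaling, 0.0143 by DESeq2, 0.0252 without a filter, 0.0941 and 0.0927 by limma at pseudocounts 0.1 and 1, and -0.0531 to 0.0492 with a mouse left out; Gba2 was 0.00496 and 0.00467 by limma; Acer1 was 0.00673 with upper-quartile and 0.0371 and 0.0328 by limma; Acer2 was 0.0218 with upper-quartile, 0.131 and 0.116 by limma, and -0.0870 to 0.0111 with a mouse left out. With a mouse left out in low PAC against water, Sphk2 ran from -0.140 to 0.00595, Acer1 from -0.0673 to 0.0974 and Acer2 from -0.0262 to 0.0605; between the PAC groups Sphk1 ran from -0.156 to 0.0956, Acer1 from -0.153 to 0.0112 and Acer2 from -0.104 to 0.00787. Per summed enterocyte marker FPKM, Sgpl1 between the PAC groups was 0.0497, and in low PAC against water -0.182 (exact permutation p = 0.206). The cause of these changes was not tested.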
